A study of Homo sapiens with 4 samples.

Results

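The insulin-like growth factor (IGF) axis was followed in Daoy cells, an established human medulloblastoma line, after knockdown of PELP1, a proline-, glutamic acid- and leucine-rich coregulator of steroid hormone receptors. Its members here are 10 genes, taken by symbol from the 23228 gene rows of the count tables: the ligand gene IGF2, the receptor genes IGF1R and IGF2R, and the binding protein genes IGFBP1 to IGFBP7. RNA was sequenced in 4 libraries, 2 from Daoy cells carrying a lentiviral PELP1 shRNA and 2 from Daoy cells carrying a lentiviral control shRNA. Both groups were stable lines in the same medium with 10% serum, and both carry an integrated vector. The sources used here do not give the shRNA sequences, the number of constructs, or whether cells were cloned or pooled. The title of the series places the comparison within a question about NF-κB and medulloblastoma progression.

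IGF1 and IGF2 are secreted peptides that act through IGF1R, a receptor tyrosine kinase that signals through IRS adaptors to PI3K, AKT and the MAP kinases. IGF2R, which also carries lysosomal enzymes as the cation-independent mannose 6-phosphate receptor, has no kinase and takes up IGF2 for degradation. IGFBP1 to IGFBP6 bind IGFs with high affinity and either keep them from the receptor or store and deliver them, and proteases such as pappalysin-1 release the bound ligand. IGFBP7 is a related secreted protein with low affinity for IGFs. In the cerebellum, IGF signalling supports the growth of granule neuron precursors, the cells from which medulloblastomas of the sonic hedgehog group arise.

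Counts in genes ranged from 26760085 to 29221640 in the PELP1 shRNA libraries and from 24052542 to 26629578 in the control shRNA libraries. PELP1 itself was at 55.6 and 49.7 CPM (counts scaled to library size with TMM factors) with the PELP1 shRNA and at 168 and 185 CPM with the control shRNA, so its transcripts stood at 29.8% of the control level (log2 fold change -1.75 ± 0.05, SE; edgeR quasi-likelihood test, FDR = 1.54e-33). Of 17 markers of medulloblastoma and the granule lineage, ZIC1, ZIC2, GLI2, PTCH1 and SFRP1 had from 401 to 4204 counts in every library, whereas the granule precursor gene ATOH1 had at most 3 counts, NEUROD1 at most 6 and BARHL1 at most 2. Of the 14 lineage markers tested, 6 were higher, 5 were lower and 3 did not pass. Among the hedgehog pathway genes of that list, HHIP stood at 16.4% of the control level (edgeR FDR = 9.62e-29), GLI2 at 61.2% and PTCH1 at 70.2%, while GLI1 was 1.75-fold and MYCN 3.11-fold higher, each with at most 40 counts in a library. The summed level of the list was 300.9 to 307.5 CPM with the PELP1 shRNA and 332.6 to 334.2 CPM with the control shRNA. The leukocyte genes PTPRC and CD3E had at most 9 counts, and the liver genes ALB and TTR had 0, which allows up to 3 counts per library. Other genes of those lists were present. CD68, a lysosomal protein gene of macrophages, had 1735 and 1603 counts with the PELP1 shRNA and 1369 and 1485 counts with the control shRNA (edgeR FDR = 0.915), and CD14 had 19 to 57 counts. Of the 3 blood cell markers tested, HBB was higher, and CD14 and CD68 did not pass. HBB had 36 and 43 counts with the PELP1 shRNA and 23 and 10 counts with the control shRNA (edgeR FDR = 0.00795). The summed level of the 6 blood cell markers was 60.7 to 61.05 CPM with the PELP1 shRNA and 59.11 to 61.14 CPM with the control shRNA. Most of that sum was CD68. SERPINA1, the antitrypsin gene among the 5 liver markers, had 472 and 418 counts with the PELP1 shRNA and 609 and 639 counts with the control shRNA, 60.6% of the control level after scaling (edgeR FDR = 2.52e-11). The liver list summed to 15.64 to 16.11 CPM with the PELP1 shRNA and 25.26 to 26.91 CPM with the control shRNA. The summed level of 6 epithelial markers was 829.3 to 851.6 CPM with the PELP1 shRNA and 567.3 to 582.3 CPM with the control shRNA. Nearly all of it was KRT8 and KRT18. KRT8, KRT18 and EPCAM were each higher. KRT14 had 0 counts in both PELP1 shRNA libraries, against 9 and 8 counts with the control shRNA. CDH1 had 0 counts there, against 3 and 2 counts, and KRT5 had 2 to 6 counts. KRT5, KRT14 and CDH1 were not tested. The summed level of 5 endothelial markers was 9.034 to 9.081 CPM with the PELP1 shRNA and 26.7 to 27.47 CPM with the control shRNA. Most of the control sum was TEK, which fell from 23.5 and 23.7 CPM to 3.12 and 3.45 CPM with the PELP1 shRNA. CDH5 was lower as well, PECAM1 and VWF were higher and KDR did not pass. The part of these shifts in the results below was not tested. RNA came from whole cultures, so fewer cells that express a gene and less of its RNA per cell cannot be told apart.

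Among the 10 genes, 3 rose with the PELP1 shRNA (IGF1R, IGFBP2 and IGFBP5), 5 fell (IGFBP1, IGFBP3, IGFBP4, IGFBP6 and IGFBP7) and 2 did not pass the threshold (IGF2 and IGF2R; edgeR quasi-likelihood test, Benjamini-Hochberg FDR under 0.05). Over all 14972 genes tested, 58.1% passed in either direction, 28.6% higher and 29.5% lower. With the filter at 5 CPM in 2 libraries, 3676 were higher and 3738 lower of 11497 genes tested. The called share was thus larger among more abundant genes. With library size alone as the scaling, 63.2% of the calls over all genes were higher, against 49.1% with TMM factors. The size of the changes separated the members more than the calls did. In a test against a 1.5-fold change, which 9.63% of all genes passed, IGFBP5, IGF1R, IGFBP1 and IGFBP3 passed. IGFBP1, IGFBP3 and IGFBP5 were called and changed by at least 2-fold, as 8.42% of all genes did. The median absolute log2 fold change was 0.46 over the 10 members and 0.26 over all genes tested. The median signed change was -0.16 over the members and 0.0 over all genes. The libraries of the 2 groups did not overlap for any of the 10 members, as was the case for 77.7% of all genes.

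**Figure D1:**
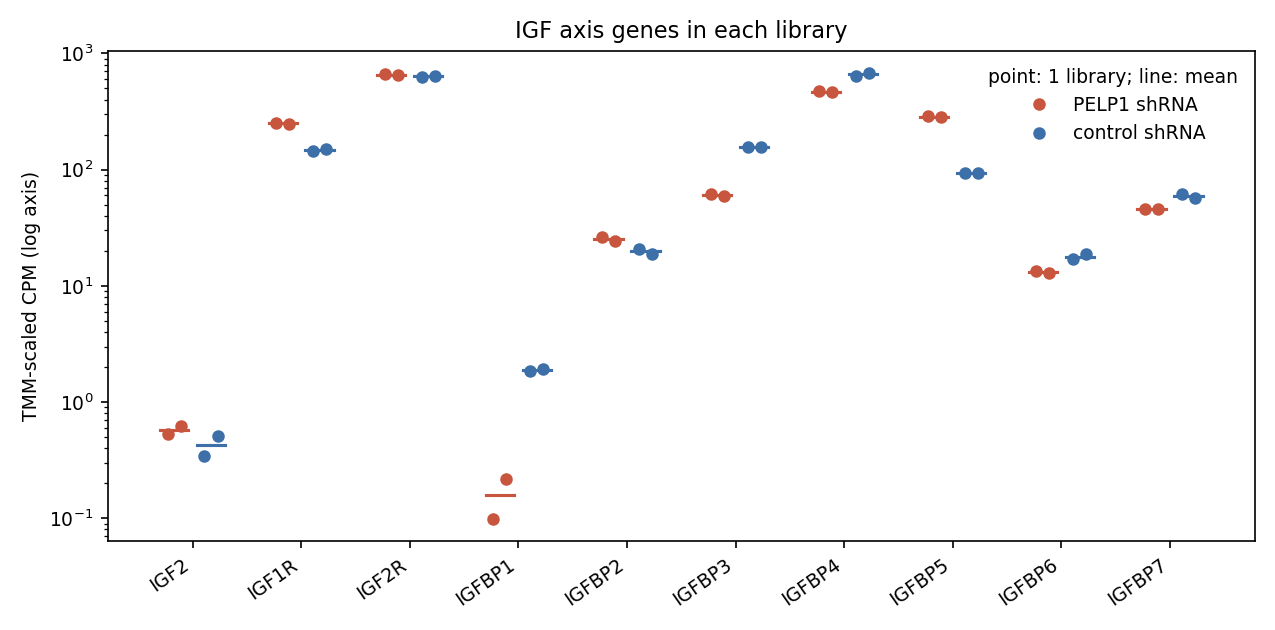
Level of each IGF axis gene in TMM-scaled CPM (log axis), with 1 point per library and a line at the group mean, PELP1 shRNA (red) left of control shRNA (blue). IGFBP5 stands at 290 and 282 CPM against 93.5 and 93.4 CPM, IGFBP3 at 62.1 and 59.1 CPM against 156 and 158 CPM, and the points of IGF2R nearly coincide.

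IGFBP5 and IGFBP3 moved in opposite directions. IGFBP5 encodes a binding protein that attaches to extracellular matrix and hydroxyapatite. It had 290 and 282 CPM in the PELP1 shRNA libraries, against 93.5 and 93.4 CPM in the control shRNA libraries. Both knockdown libraries were about 3 times as high as either control, a 3.06-fold rise (log2 fold change 1.61 ± 0.04, SE; edgeR FDR = 2.6e-42). Among genes with a mean of at least 5 CPM, 1.09% changed by as much in either direction. IGFBP3 encodes the main carrier of IGFs in serum, where it forms a ternary complex with the acid-labile subunit. It had 62.1 and 59.1 CPM with the PELP1 shRNA, against 156 and 158 CPM with the control shRNA. Its level in the knockdown libraries was 38.7% of the control level, with a difference far above the spread within groups (log2 fold change -1.37 ± 0.05, SE; edgeR FDR = 2.07e-35), and 1.66% of genes over 5 CPM changed by as much. The ratio of IGFBP5 to IGFBP3 counts within a library, which no scaling can alter, was 4.66 and 4.78 with the PELP1 shRNA and 0.6 and 0.592 with the control shRNA. The ratio was thus 7.92 times as high on average. An exact two-sided permutation test of 2 libraries against 2 cannot reach p = 0.05, and this ratio gave the smallest value possible, p = 0.33.

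The genes for IGFBP2 and IGFBP5 lie next to each other on chromosome 2, and those for IGFBP1 and IGFBP3 on chromosome 7. In GRCh37, the build that hg19 corresponds to, IGFBP2 (plus strand, 217497551 to 217529159) and IGFBP5 (minus strand, 217536828 to 217560272) point towards each other across 7668 bases. IGFBP1 (plus strand, 45927959 to 45933259) and IGFBP3 (minus strand, 45951844 to 45961473) do so across 18584 bases. Both genes of the chromosome 2 pair rose and both genes of the chromosome 7 pair fell. The rise of IGFBP2 was 1.29-fold, and its call was lost with an assumed biological variation of 10% (adjusted p = 0.0633). How often neighbouring genes moved alike over all genes was not tested. The nearest counted protein-coding genes outside the pairs were looked at after the pairs were seen. Those that passed the threshold moved opposite to the pair they flank, and the others did not pass or were not tested. Beside the chromosome 7 pair, 165243 bases before IGFBP1, the adenylyl cyclase gene ADCY1 rose (36 and 34.2 CPM with the PELP1 shRNA, 12.7 and 14.2 CPM with the control shRNA; edgeR FDR = 3.93e-23). The focal adhesion gene TNS3, 1353278 bases past IGFBP3, rose as well (log2 fold change 0.36 ± 0.04, SE; edgeR FDR = 4.54e-13). TBRG4 (-0.07, edgeR FDR = 0.139), PKD1L1 (0.12, edgeR FDR = 0.82) and HUS1 (0.07, edgeR FDR = 0.299) did not pass, and RAMP3 was not tested. Beside the chromosome 2 pair, the ribosomal protein gene RPL37A fell by 0.24 on the log2 scale (SE 0.04; edgeR FDR = 4.58e-08), and SMARCAL1 (0.07, edgeR FDR = 0.356) and XRCC5 (0.06, edgeR FDR = 0.145) did not pass. TNS1, 1104038 bases past IGFBP5, fell by 1.29 (SE 0.09; edgeR FDR = 1.91e-19). TNP1, nearer at 163908 bases past IGFBP5, and RUFY4 had at most 2 counts in a library and were not tested.

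**Figure D2:**
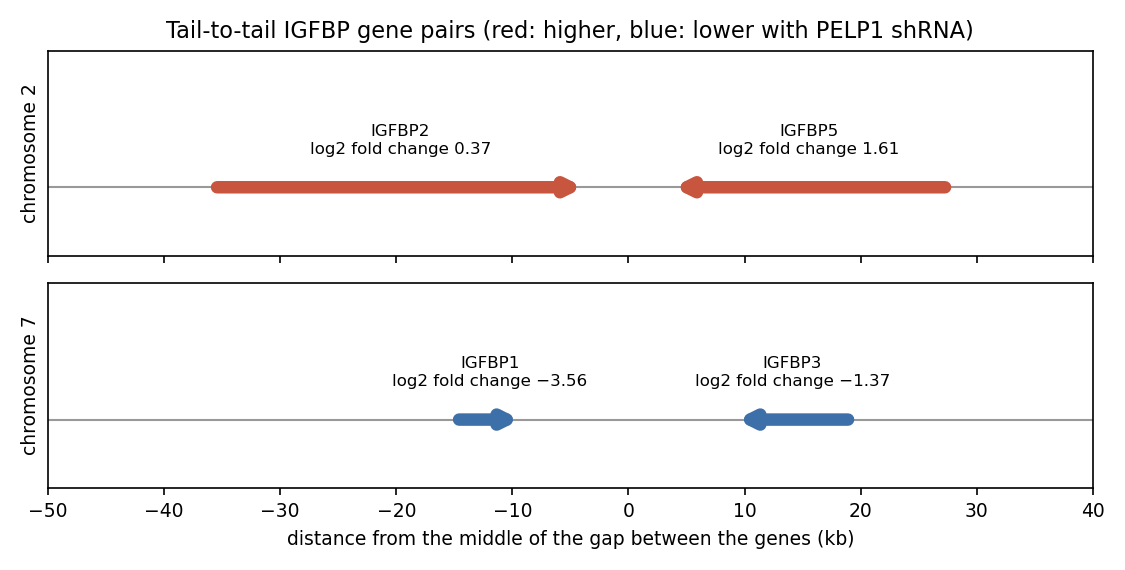
Position and direction of transcription of the tail-to-tail IGFBP gene pairs, drawn to scale as distance in kb from the middle of the gap between the genes, with the log2 fold change of each gene. The chromosome 2 pair (IGFBP2 0.37, IGFBP5 1.61) is higher with PELP1 shRNA and the chromosome 7 pair (IGFBP1 -3.56, IGFBP3 -1.37) is lower.

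Promoter sequences are shown for the members that rose and for IGFBP3, the abundant member that fell most, so that the windows of genes that moved alike and apart can be read side by side. RefSeq windows (GRCh38.p14) run from 250 bases before to 50 bases after a transcript start, and 7 of the 10 members had one. Each window printed here occurs once in GRCh37, at chr2:217560223-217560522 (IGFBP5, minus strand), chr2:217497893-217498192 (IGFBP2, plus strand), chr15:99191518-99191817 (IGF1R, plus strand) and chr7:45960822-45961121 (IGFBP3, minus strand). IGFBP2 had 3 windows, and the one at the start of its canonical GENCODE transcript is shown. Sequences are given 5′ to 3′ on the strand of the gene, and capitals mark a GC box (GGGCGG on either strand) or the NF-κB consensus.
IGFBP5: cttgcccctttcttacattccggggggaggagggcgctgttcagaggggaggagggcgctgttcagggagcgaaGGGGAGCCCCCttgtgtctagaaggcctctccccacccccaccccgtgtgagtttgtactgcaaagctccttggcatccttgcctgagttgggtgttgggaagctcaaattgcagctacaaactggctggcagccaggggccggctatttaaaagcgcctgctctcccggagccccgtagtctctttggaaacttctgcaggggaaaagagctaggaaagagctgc
IGFBP2: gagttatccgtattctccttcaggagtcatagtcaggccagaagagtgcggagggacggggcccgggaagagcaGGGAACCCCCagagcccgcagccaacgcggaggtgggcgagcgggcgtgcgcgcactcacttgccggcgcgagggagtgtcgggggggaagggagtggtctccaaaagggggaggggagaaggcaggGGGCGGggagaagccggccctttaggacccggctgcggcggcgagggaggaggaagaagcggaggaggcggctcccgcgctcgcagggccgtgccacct
IGF1R: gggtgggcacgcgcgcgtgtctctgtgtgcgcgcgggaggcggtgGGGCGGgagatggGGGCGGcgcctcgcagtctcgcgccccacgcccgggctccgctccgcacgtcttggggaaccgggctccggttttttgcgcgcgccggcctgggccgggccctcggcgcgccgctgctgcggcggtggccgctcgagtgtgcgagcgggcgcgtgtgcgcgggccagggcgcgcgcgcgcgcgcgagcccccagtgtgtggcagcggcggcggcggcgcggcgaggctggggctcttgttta
IGFBP3: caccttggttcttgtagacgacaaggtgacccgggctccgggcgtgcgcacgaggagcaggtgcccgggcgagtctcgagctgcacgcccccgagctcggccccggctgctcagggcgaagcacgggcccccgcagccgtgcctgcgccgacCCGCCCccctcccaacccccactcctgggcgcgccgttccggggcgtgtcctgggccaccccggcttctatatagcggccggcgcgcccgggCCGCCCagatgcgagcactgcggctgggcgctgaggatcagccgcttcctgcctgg
The IGFBP5 window held 2 overlapping matches to the NF-κB consensus, which begin 176 and 175 bases before the start, and no GC box. The IGFBP2 window held 1 match that also begins 176 bases before the start, and 1 GC box. Of 35116 RefSeq windows, 11.3% held the NF-κB consensus and 45% a GC box. These shares are over all windows and were not matched for G and C content. The IGF1R and IGFBP3 windows each held 2 GC boxes and no match to the NF-κB consensus, and the window of IGFBP6, which fell, held 1 match. No match was found in the other IGFBP2 windows or in those of IGFBP4 and IGF2R. A match describes the letters and does not show that a factor binds there. The bases of the windows were 59.0% G or C for IGFBP5, 70.0% for IGFBP2, 79.7% for IGF1R and 74.7% for IGFBP3, against a median of 58.7% over all windows. The letters TATAAA were found in none of the printed windows. In the window of IGFBP4 (chr17:38599452-38599751), they end 23 bases short of the transcript start, and 11.5% of all windows held them on either strand.

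Receptor genes differed from each other. IGF1R, on chromosome 15 (99191768 to 99507759, plus strand), had 251 and 248 CPM in the PELP1 shRNA libraries, against 144 and 150 CPM in the control shRNA libraries. The knockdown libraries were 1.69 times as high (log2 fold change 0.76 ± 0.04, SE; edgeR FDR = 1.39e-25). IGF2R, on chromosome 6 (160390114 to 160534539, plus strand), had 661 and 649 CPM with the PELP1 shRNA, against 632 and 635 CPM with the control shRNA. The groups did not overlap, but the difference of 0.05 ± 0.03 on the log2 scale (SE) missed the threshold (edgeR FDR = 0.226). It passed when other scaling was used, at 0.1 with upper-quartile factors (FDR = 0.00848) and at 0.14 with library size alone (FDR = 0.000224). Those scalings moved the median of all genes by 0.053 and 0.09. The ratio of IGF1R to IGF2R counts within a library, free of scaling, was 0.379 and 0.381 with the PELP1 shRNA and 0.228 and 0.236 with the control shRNA (1.64 times as high, exact permutation p = 0.33, the smallest possible). INSR, the insulin receptor gene whose product also pairs with IGF1R in hybrid receptors, was at 26.1 and 24.3 CPM with the PELP1 shRNA and 21.2 and 21.1 CPM with the control shRNA. It rose by 0.25 ± 0.08 on the log2 scale (SE; edgeR FDR = 0.00466), a call lost with DESeq2 (adjusted p = 0.0505) and without PELP1 shRNA replicate 1 (edgeR FDR = 0.0826).

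Ligand transcripts were scarce in these cells. IGF2, the growth factor gene of the imprinted cluster on chromosome 11 (2150342 to 2179621, minus strand), had 16 and 17 counts in the PELP1 shRNA libraries and 8 and 13 counts in the control shRNA libraries. This corresponds to 0.53 and 0.617 CPM against 0.342 and 0.505 CPM, and the difference did not pass (log2 fold change 0.42 ± 0.44, SE; edgeR FDR = 0.426). At these counts, a ratio between 0.751 and 2.43 lies within the 95% counting interval, which is exact and covers counting error only. Of its 7146 exonic bases, 3084 are shared with other genes on the same strand and 333 with the antisense gene, so its count may be partial. The same-strand genes include the read-through gene INS-IGF2 (1460 bases) and a protein-coding gene without a symbol (2711 bases), with some bases in both. IGF1 had 8 counts in each PELP1 shRNA library, and 1 and 3 counts in the control shRNA libraries, too few to be tested. INS and INS-IGF2 had 0 counts in every library, with 3 counts as the limit that a count of 0 allows. H19, the noncoding neighbour of IGF2, had 26 and 22 counts with the PELP1 shRNA and 28 and 17 with the control shRNA.

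IGFBP4 was the most abundant binding protein gene, and it fell. Its product inhibits IGF action and is cleaved by pappalysin-1 when IGF is bound. On chromosome 17 (38599702 to 38613977, plus strand), it had 476 and 462 CPM with the PELP1 shRNA, against 639 and 678 CPM with the control shRNA. The knockdown libraries were at 71.2% of the control level (log2 fold change -0.49 ± 0.04, SE; edgeR FDR = 3.96e-19). IGFBP7, on chromosome 4 (57896939 to 57976551, minus strand), had 45.9 and 45.8 CPM with the PELP1 shRNA, against 61.1 and 56.7 CPM with the control shRNA. It fell to 77.9% (log2 fold change -0.36 ± 0.06, SE; edgeR FDR = 2.43e-07), and 260 of its exonic bases lie opposite exons of POLR2B, an RNA polymerase II subunit gene. IGFBP6, on chromosome 12 (53491220 to 53496129, plus strand), encodes the binding protein that prefers IGF2. It had 13.4 and 13 CPM with the PELP1 shRNA, against 17 and 18.7 CPM with the control shRNA, and stood at 73.9% of the control level (log2 fold change -0.44 ± 0.09, SE; edgeR FDR = 4.43e-05). These 3 falls were all smaller than 1.5-fold.

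IGFBP2, which carries an integrin-binding RGD motif and is a major binding protein of cerebrospinal fluid, had 26.5 and 24.4 CPM with the PELP1 shRNA, against 20.7 and 18.8 CPM with the control shRNA. The groups lay apart by more than the spread within either (log2 fold change 0.37 ± 0.08, SE; edgeR FDR = 8.72e-05). IGFBP1, the insulin-repressed binding protein of liver and decidua, was near the limit of detection. It had 3 and 6 counts in the PELP1 shRNA libraries, against 43 and 50 counts in the control shRNA libraries. Control libraries held 12.2 times as many counts after scaling (95% counting interval 6.13 to 27.4; edgeR FDR = 2.51e-11). The fitted log2 fold change of IGFBP1 was -3.56, and it was -3.09 without PELP1 shRNA replicate 1 and -4.19 without PELP1 shRNA replicate 2.

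**Figure D3:**
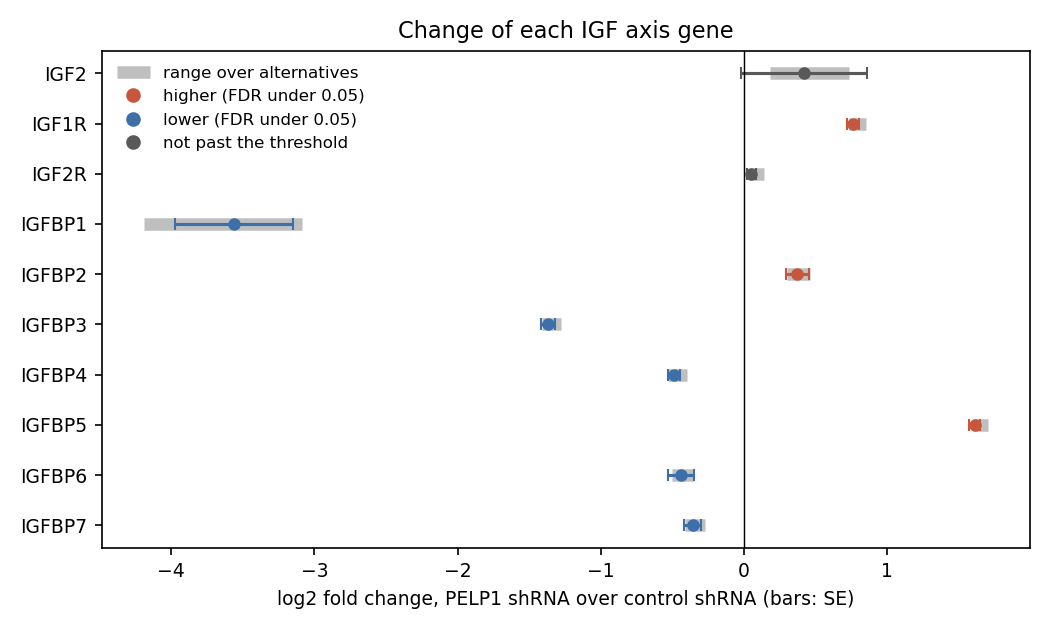
Log2 fold change (PELP1 shRNA over control shRNA) of each IGF axis gene with its SE, over the range that the alternative fits gave (grey). IGFBP5 and IGF1R lie right of 0 throughout, IGFBP1, IGFBP3, IGFBP4, IGFBP6 and IGFBP7 lie left of it, and the SE of IGF2 spans 0.

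Per length of exon sequence, where genes can be compared with each other, the order of the members shifted with the knockdown. In RPKM (CPM divided by the kilobases of exon), IGFBP4 came first in both groups, at 213 ± 4.52 RPKM with the PELP1 shRNA and 299 ± 12.3 RPKM with the control shRNA (SD, n = 2 each). IGFBP5 came second with the PELP1 shRNA at 44.2 ± 0.798 RPKM, whereas it was the fifth with the control shRNA at 14.5 ± 0.00637 RPKM (SD, n = 2 each). IGFBP3 was the sixth with the PELP1 shRNA at 13.3 ± 0.47 RPKM, whereas it was second with the control shRNA at 34.3 ± 0.29 RPKM (SD, n = 2 each). With the PELP1 shRNA, IGF2R (29 RPKM), IGFBP7 (23.7 RPKM) and IGF1R (17.9 RPKM) lay between IGFBP5 and IGFBP3, and with the control shRNA IGFBP7 (30.5 RPKM) and IGF2R (28 RPKM) lay between IGFBP3 and IGFBP5. IGFBP6, IGFBP2, IGFBP1 and IGF2 closed the order with the PELP1 shRNA, and only IGFBP1 and IGF2 overlapped there. In the control libraries no neighbours overlapped. Positions of similar genes depended on the transcript length taken: with the length of the canonical transcript, chosen after the data were seen, IGF2R (46.6 RPKM) and IGFBP5 (45.9 RPKM) overlapped with the PELP1 shRNA, and IGFBP3 kept second place with the control shRNA (60 RPKM).

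The 7 IGFBP genes together had 313.6 and 304.8 RPKM with the PELP1 shRNA, against 388.3 and 404.7 RPKM with the control shRNA, 0.78 times the control level. IGFBP4 made up 68.8% ± 0.067 of that sum with the PELP1 shRNA and 75.3% ± 0.89 with the control shRNA (SD, n = 2 each). IGFBP5 made up 14.3% ± 0.032 with the PELP1 shRNA and 3.65% ± 0.11 with the control shRNA. IGFBP3 made up 4.29% ± 0.065 with the PELP1 shRNA and 8.66% ± 0.18 with the control shRNA. The share of IGFBP7 was 7.68% ± 0.14 with the PELP1 shRNA and 7.7% ± 0.63 with the control shRNA, a difference within the spread between libraries. With counts not divided by length, it was 5.02% and 5.16% with the PELP1 shRNA and 6.17% and 5.53% with the control shRNA, and the groups did not overlap. For the sum and for the shares of IGFBP3, IGFBP4 and IGFBP5 the groups did not overlap, and the exact permutation test gave its smallest possible p of 0.33. The size of the fall in the sum depended on length. Not divided by length, the sum was 913.8 and 886.9 CPM with the PELP1 shRNA and 989.4 and 1025 CPM with the control shRNA, 0.894 times the control level.

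**Figure D4:**
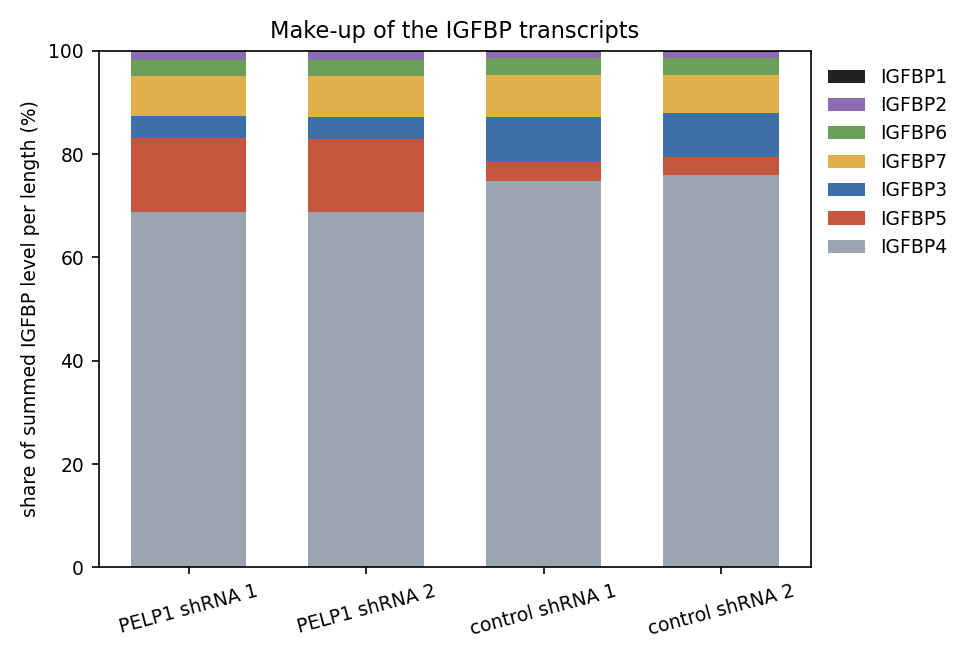
Share (%) of each IGFBP gene in the summed level per length of the 7 genes, 1 bar per library. IGFBP5 takes 14.3% of the PELP1 shRNA bars and 3.72% and 3.57% of the control shRNA bars, and IGFBP3 takes 4.34% and 4.24% against 8.79% and 8.53%.

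Genes for proteases of the binding proteins and for inhibitors of such proteases, taken as 1 list, were mostly lower. Among 11 tested proteases of IGFBPs and their inhibitors, 7 genes fell, 3 rose and 1 missed the threshold (90.9% called, beside 58.1% of all genes, of which 29.5% were lower and 28.6% higher). Their median log2 fold change was -0.66 and their median absolute change 0.97, against 0.0 and 0.26 over all genes. PAPPA, which encodes pappalysin-1, a metalloproteinase that cleaves IGFBP4 and IGFBP5, had 66.3 and 69.1 CPM with the PELP1 shRNA, against 152 and 146 CPM with the control shRNA (log2 fold change -1.14 ± 0.05, SE; edgeR FDR = 4.14e-31). Its inhibitors, the stanniocalcins, fell as well. STC2 had 271 and 280 CPM with the PELP1 shRNA, against 432 and 442 CPM with the control shRNA (log2 fold change -0.66 ± 0.04, SE; edgeR FDR = 6.97e-25), and STC1 had 8.22 and 9 CPM with the PELP1 shRNA, against 15.8 and 17.9 CPM with the control shRNA (log2 fold change -0.97 ± 0.10, SE; edgeR FDR = 1.23e-12). PAPPA counts over STC2 counts came to 0.244 and 0.247 with the PELP1 shRNA and 0.352 and 0.33 with the control shRNA. HTRA1, a serine protease that cleaves IGFBP5, went the other way, with 91.2 and 95.5 CPM with the PELP1 shRNA and 40.9 and 40.6 CPM with the control shRNA (log2 fold change 1.20 ± 0.05, SE; edgeR FDR = 8.28e-29). The lysosomal protease gene CTSD rose by 0.46 on the log2 scale. ADAM9 fell by 0.97, and ADAMTS1, a protease of matrix proteoglycans, fell by 3.23 to 10.7% of the control level. PAPPA2 had 1 or 2 counts in each library and was not tested.

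Genes for other partners of the binding proteins were mostly lower. Of 10 tested, 7 fell, 1 rose and 2 did not pass (median log2 fold change -0.29, against 0.0 over all genes). The called share was 80.0%, beside 58.1% over all genes, where 29.5% were lower. CAV1, the caveolae protein gene, fell by 0.77, LRP1, which encodes an endocytic receptor for IGFBP3, by 0.39, and ITGB1, the integrin β1 subunit gene, by 0.38 on the log2 scale. FN1, the fibronectin gene, was the one that rose (log2 fold change 0.51 ± 0.03, SE; edgeR FDR = 1.26e-21).

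Downstream of IGF1R, changes were small and ran both ways. Among 33 tested genes, 11 were higher, 14 lower and 8 past no threshold. Their median was -0.06 and their median absolute change 0.23, beside 0.26 for all genes. This was 75.8% called, beside 58.1% of all genes (28.6% higher and 29.5% lower). With the filter at 5 CPM in 2 libraries, 12 of the list were higher and 12 lower. Over all 11497 genes tested with that filter, 3676 were higher and 3738 lower. The balance depended on the scaling: 15 were higher and 9 lower with library size alone, and 13 higher and 11 lower with upper-quartile factors. The adaptor genes split: IRS1 had 45.2 and 42.3 CPM with the PELP1 shRNA, against 61.2 and 63.7 CPM with the control shRNA (log2 fold change -0.51 ± 0.06, SE; edgeR FDR = 1.34e-11). IRS2 had 19.8 and 19.2 CPM with the PELP1 shRNA, against 14.6 and 13.2 CPM with the control shRNA (log2 fold change 0.49 ± 0.09, SE; edgeR FDR = 3.83e-06). FOXO1, the transcription factor that AKT keeps out of the nucleus, changed most of the genes named here, with 36.8 and 38.1 CPM with the PELP1 shRNA and 16.5 and 16 CPM with the control shRNA (log2 fold change 1.21 ± 0.08, SE; edgeR FDR = 1.14e-21). The related factor gene FOXO4 rose by 0.83, and the PI3K subunit genes PIK3R1 and PIK3CB rose by 0.67 and 0.53 on the log2 scale. MAP2K1, the kinase gene upstream of ERK, fell by 0.46, MTOR by 0.41 and PTPN1, a phosphatase gene of insulin and IGF receptors, by 0.36. GRB10, an adaptor that restrains insulin and IGF receptors, is not among these 33 genes and fell by 0.20 (SE 0.04; edgeR FDR = 2.29e-05). It belongs to the list of IGF ligands, receptors and their relatives. Of 4 tested genes of that list, 2 rose, 1 fell and 1 did not pass (75.0% called, beside 58.1% of all genes).

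Around IGF2R and IGF2 the shifts were smaller still. Of 8 genes of mannose 6-phosphate sorting, 3 rose, 2 fell and 3 did not pass (median -0.07). The called share of 62.5% was near the 58.1% of all genes. With library size alone, 3 rose and 1 fell. GNPTAB, a subunit gene of the enzyme that makes the mannose 6-phosphate tag, had 117 and 126 CPM with the PELP1 shRNA and 95.2 and 88.1 CPM with the control shRNA (log2 fold change 0.41 ± 0.05, SE; edgeR FDR = 4.07e-11). NAGPA, which uncovers the tag, stood at 0.25 (edgeR FDR = 0.0193), and its call was lost with DESeq2 (adjusted p = 0.133) and without control shRNA replicate 1 (edgeR FDR = 0.0556), control shRNA replicate 2 (0.0791) or PELP1 shRNA replicate 1 (0.168). PLIN3 stood at 0.15, a call lost without PELP1 shRNA replicate 1 (edgeR FDR = 0.132). The adaptor genes GGA2 and GGA3, which sort the receptor into transport vesicles, fell by 0.25 and 0.21, and GGA3 missed the threshold with library size alone (FDR = 0.0606). Of 7 tested neighbours and mRNA regulators of IGF2, 4 rose and 3 did not pass (median 0.11), a called share of 57.1%, also near that of all genes. HMGA2 and IGF2BP2 each stood at 0.15, and IGF2BP1 and IGF2BP3, oncofetal proteins that bind IGF2 mRNA, each at 0.11. The calls of IGF2BP1 (without control shRNA replicate 1, edgeR FDR = 0.132) and IGF2BP3 (without control shRNA replicate 2, 0.208) rested on single libraries. Both were also lost without PELP1 shRNA replicate 2 (edgeR FDR = 0.185 for IGF2BP1 and 0.223 for IGF2BP3).

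**Figure D5:**
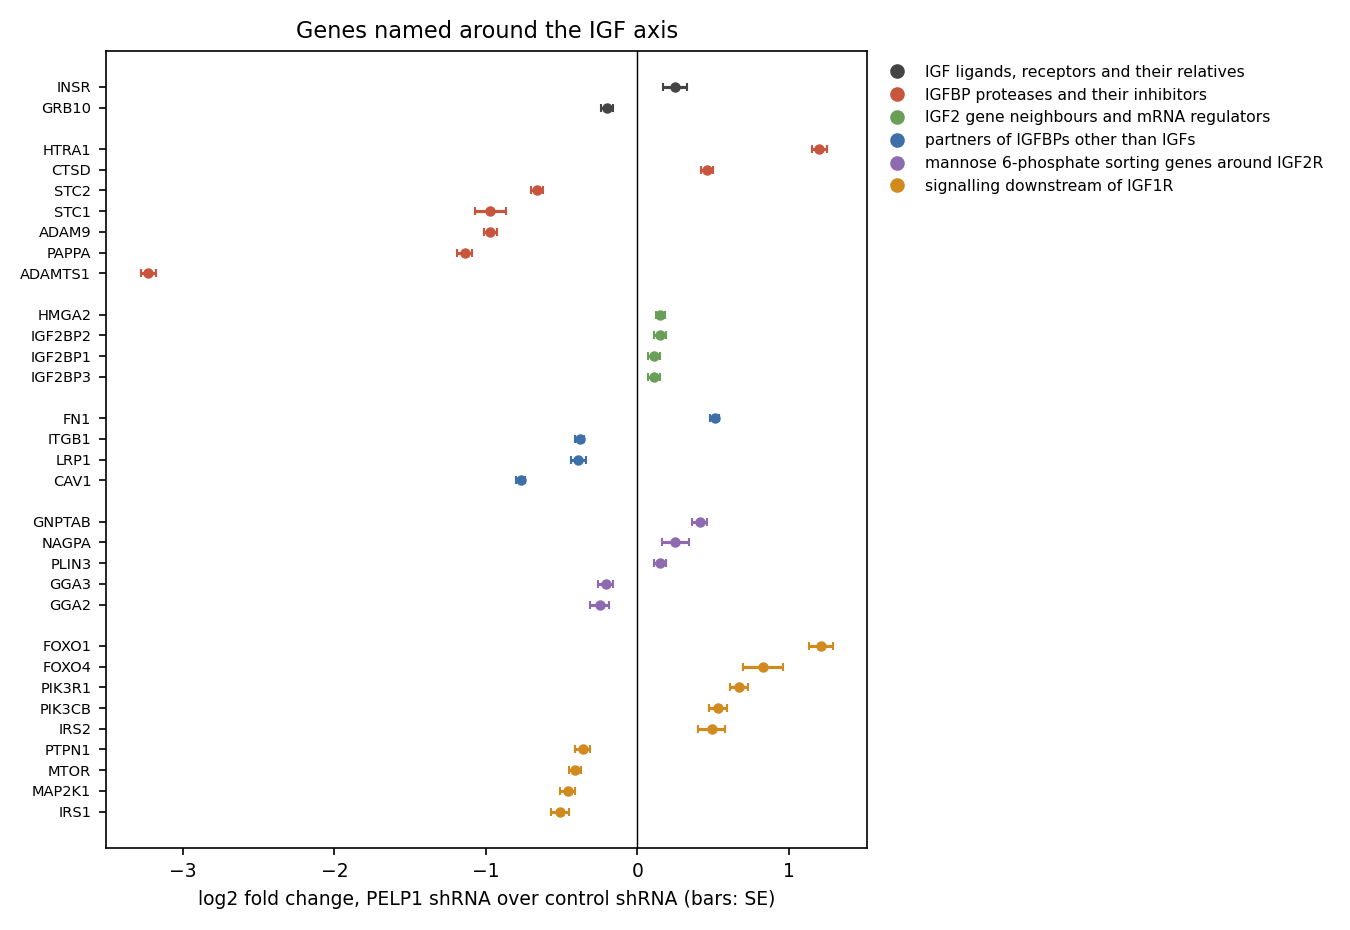
Log2 fold change (PELP1 shRNA over control shRNA) with its SE for the genes named in 6 lists around the IGF axis. The proteases and inhibitors spread from ADAMTS1 at -3.23 to HTRA1 at 1.2, whereas the regulators of IGF2 lie between 0.11 and 0.15.

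By pattern over the 4 libraries, the genes closest to IGFBP5 among 11325 genes with a mean of at least 5 CPM were KRT7, MOSC1 and FAM49A, at Euclidean distances of 0.0247, 0.0595 and 0.0781 between mean-centred log2 levels. Closest to IGFBP3 were CTSS, SPHK1 and MAP1B, at 0.0256, 0.0564 and 0.0586. With 4 libraries in 2 groups such a distance mainly reflects a like fold change.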

How the data were processed

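The authors deposited 1 file per library with raw counts by gene symbol. Total RNA was made into TruSeq libraries for single-end sequencing (50 bp), per the labels' protocols. The submitters' processing notes name TopHat2 2.0.8b, HTSeq and the hg19 build. The strand setting and annotation were not given, so reads of overlapping antisense genes cannot be told apart. Rows that name no gene (29.38% to 30.82% of the file total for alignments that were not unique, 8.83% to 9.08% for reads in no gene, 0.58% to 0.6% ambiguous) were left out.

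Counts were tested in edgeR 4.0.16 (R 4.3.3) with TMM factors, filterByExpr and the robust quasi-likelihood F test on shRNA group, two-sided, with Benjamini-Hochberg adjustment over 14972 genes and an FDR threshold of 0.05. The biological coefficient of variation was 2.99%. A positive log2 fold change means higher with the PELP1 shRNA. Fits were also run on simulated counts with 200 changed genes. In the real libraries 8700 of 14972 genes were called, so that run does not test scaling under such broad change. Alternatives used DESeq2 1.42.0, limma 3.58.1 (voom), other scalings and filters, left-out libraries, a replicate block, an assumed variation of 10% or 20% and a 1.5-fold null. Replicates differed beyond counting noise (chi-square per degree of freedom 2.374 for the PELP1 shRNA pair and 2.469 for the control shRNA pair). Separate cultures are not stated, so p-values reflect just the spread among these libraries, possibly technical.

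Lengths and positions came from GENCODE v44 lifted to GRCh37, and promoter sequences from RefSeq. The members and lists were chosen with earlier results of these data known. Of each list, up to 4 genes per direction were named, those with the largest change past the threshold, non-overlapping groups and a mean no lower than 5 CPM, plus IGF1, INSR, IRS1, IRS2, PAPPA, STC2 and HTRA1. Genes outside this rule were named after their values were seen, and a gene within it is not reported here.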

Additional observations from a re-analysis of the deposited data

How the results depend on the processing

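The counts of 3 higher and 5 lower members were the same without any single library, with limma-voom, with DESeq2, with no low-count filter, and with the replicate number as a block (3 higher, 5 lower). The differences between replicates 1 and 2 were weakly and negatively correlated between the 2 groups (correlation -0.154 over 11325 genes). A fit with crossed numbers, added once the data had been seen, also gave 3 and 5. Over all genes the crossed fit called 4565 higher and 4719 lower, against 4010 and 4151 with the replicate number as a block. IGF2R joined the higher genes under upper-quartile scaling and under library size alone. IGFBP1 and IGF2 did not reach the filter of 5 CPM in 2 libraries. With an assumed biological variation of 10%, IGFBP2 (adjusted p = 0.0633) and IGFBP7 (0.053) missed the threshold. With 20%, 1 member was higher (IGFBP5) and 2 were lower (IGFBP1 and IGFBP3). Tested against a 1.5-fold change, 2 members were lower. Over all alternatives IGFBP5 ranged from 1.6 to 1.7, IGFBP3 from -1.41 to -1.28 and IGF1R from 0.73 to 0.85. PELP1 ranged from -1.83 to -1.67 when single libraries were left out. The 24 higher and 31 lower genes of the pathway lists came to 11 and 14 with 10% assumed variation, 3 and 5 with 20%, and 3 and 7 against a 1.5-fold change. Over all genes, 2187 were higher and 2176 lower with 10% and 685 and 640 with 20%. These settings ask for larger changes by construction. They ranged from 19 to 23 higher and 24 to 31 lower without single libraries. No direction was reversed in any alternative run for a member or named gene. Shares with the canonical transcript length, chosen after the data were seen, were 61.5% and 66.5% for IGFBP4 (PELP1 shRNA, then control shRNA), 13.3% and 3.34% for IGFBP5, and 6.71% and 13.4% for IGFBP3. With counts not divided by length they were 52.1% and 65.4%, 31.8% and 9.28%, and 6.73% and 15.6%. With 2 libraries per group, leaving 1 out returns the share in the other library and is no further test. In single libraries, the share per exon length of IGFBP4 was 68.7% to 68.8% and 74.7% to 75.9%. That of IGFBP5 was 14.3% and 3.57% to 3.72%, and that of IGFBP3 was 4.24% to 4.34% and 8.53% to 8.79%. Depth limits IGF1, IGF2 and IGFBP1, which had at most 50 counts in any library.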
